A study of Arabidopsis thaliana with 10 samples.

Results

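Segment II of the wild-type inflorescence stem of Arabidopsis thaliana was compared with segment I above it, across all genes of the RNA-seq tables. The comparison uses 2 of the 10 samples of the series. Both came from wild-type plants (WT, genotype label WT, accession Col) with stems 20 cm tall, grown in long days of 16 h light and 8 h dark at 22 °C. Segment I was the stretch from 0 to 3 cm below the top, and segment II the stretch from 5 to 7 cm. Each segment has 1 library, which no label describes as pooled or repeated. The series also holds RNA-seq of segment III (10 to 12 cm) of WT and a segment II library labelled atx1, and 6 chromatin samples that are not analysed here. Genes were joined by their locus identifier, and those with an FPKM of at least 1 in either library were kept, 18083 of the 23615 listed. FPKM counts fragments per kilobase of transcript after scaling to the size of the library. Differences are log2(FPKM + 1) in segment II minus the same in segment I, and a gene is called higher or lower from 2-fold on, that is from 1 on this scale, which understates the differences of genes with low values. With 1 library a side there are no replicates, so no difference has an error or a test, and every value describes these libraries.

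An inflorescence stem grows in length near its top. There, dividing and expanding cells need a loosened, pectin-rich wall, a cuticle laid down over a stretching epidermis, and the hormones auxin, brassinosteroid and gibberellin. Farther down, elongation ends, vessels and fibres build thick secondary walls, and the stem serves mainly as a support and as a route for water, sugars, amino acids and ions. Transcription factors, small secreted peptides, carriers and lipid enzymes that differ between these zones are described here, by the families whose members carry family names in the gene table.

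The 2 libraries were of like depth, about 20200000 fragments in segment I and 19000000 in segment II, as read from the steps between the lowest values. Of the kept genes, 1863 were higher in segment II (10.3%), 3031 were lower (16.8%) and 13189 lay within 2-fold. The median difference over all kept genes was -0.16, so a list median near that value does not set a list apart. Scaling the libraries by their median ratio brought this median to -0.0145 and gave 2225 higher and 2530 lower genes. At the call, the nearest genes were GRF5, at 1.12 and 0.06 FPKM (difference -1.0, inside), and DEG9, at 19.95 and 9.48 (-0.9993, outside). At the FPKM floor, CLE43, at 1.0 and 0.04, was kept, and a locus at 0.0 and 0.99 was not. A gene listed at 0 may be a failed estimate in a table without counts, so no fold is given against it.

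Marker levels were compared before the gene families. All 7 fibre markers were higher in segment II (median 3.78), and 6 of 9 vessel and xylem markers were (median 2.31). None of the 7 cambium markers, 6 leaf photosynthesis markers and 3 kept shoot meristem markers passed 2-fold in either direction; the meristem regulators STM and KNAT1 were at 58.93 and 60.72 FPKM and at 82.12 and 66.44. Of 12 phloem markers 4 were higher and 1, OPS (21.15 and 8.76), lower (median 0.35). Of 10 epidermis markers 5 were lower and none higher (median -1.06), although KCS6 (440.44 and 413.92) and ABCG12 (52.35 and 53.62), both wax genes of the epidermis, lay within 2-fold. Of 6 kept floral markers 2, CAL (13.64 and 4.07) and PI, were lower and none was higher (median -0.76). The summed level of 10 listed floral markers was 65.42 and 59.85 FPKM, of which SEP4 (39.9 and 50.41) made up most. That of 5 listed root markers was 13.52 and 7.34, most of it from SCR (11.7 and 6.76), and that of 5 listed pollen and anther markers was 1.0 and 13.22, where the pollen coat gene BCP1 was at 0.52 and 9.06. Of the floral organ genes, PI was at 1.12 in segment I and listed at 0 in segment II. In such bulk samples, fewer cells of a type and less RNA per cell cannot be told apart.

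The largest differences are given first, among genes with a symbol and at least 10 FPKM in the higher library. LTP1 (AT2G38540, listed as LP1), a lipid transfer protein of the epidermis, was at 2394.7 FPKM in segment I and 7.15 in segment II, a difference of -8.20. The lower genes that followed it among those with a symbol were the desaturase-like ADS4 (AT1G06350, 171.42 and 0.38), the proline-rich wall protein gene PRP2 (AT2G21140, 437.45 and 2.57), the chalcone synthase gene TT4 (AT5G13930, 91.11 and 0.27) and the gibberellin-regulated peptide gene GASA4 (AT5G15230, 484.33 and 6.2). Ranks 6 to 15 held MLP423, LTL1, LTP6, the pectin methylesterase gene PMEPCRB, the epidermal PDF1, DGR2, E13L3, the expansin gene EXPA5, the flavonol synthase gene FLS1 and the cutin acyltransferase gene DCR (listed as PEL3), with differences from -5.94 to -5.02. Loci without a symbol reached differences of like size, such as AT5G51950, at 85.55 in segment I and listed at 0 in segment II, and AT5G45950, at 71.96 and 0.08.

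On the segment II side, IQD10 (AT3G15050), which encodes a calmodulin-binding protein, led with 3.33 and 316.87 FPKM, a difference of 6.20. The locus AT2G37130, which has no symbol, was at 0.68 and 92.18. Galactinol synthase GolS2 (AT1G56600), which starts the synthesis of raffinose sugars, was at 0.15 and 47.62. CYP79B3 (AT2G22330, 1.69 and 105.66) and CYP79B2 (AT4G39950, 1.73 and 75.98), the paired enzymes that start the synthesis of indole glucosinolates from tryptophan, were both among the 15. So were the glutathione transferase gene GSTF2 (AT4G02520, 2.86 and 139.13) and the germin-like gene GER2 (AT5G39190, 1.44 and 68.82). The light-harvesting gene LHB1B1 (AT2G34430) was at 21.0 and 748.74, while the 6 leaf photosynthesis markers lay within 2-fold. It has near-identical copies, between which the authors' counting could divide reads. The other 8 of the 15 were the wall genes MYB103, IRX15, PAL4, CTL2, SND1 (listed as NAC012), IRX15-L, IRX8 (listed as GAUT12) and GUX1 (listed as PGSIP1).

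**Figure D1:**
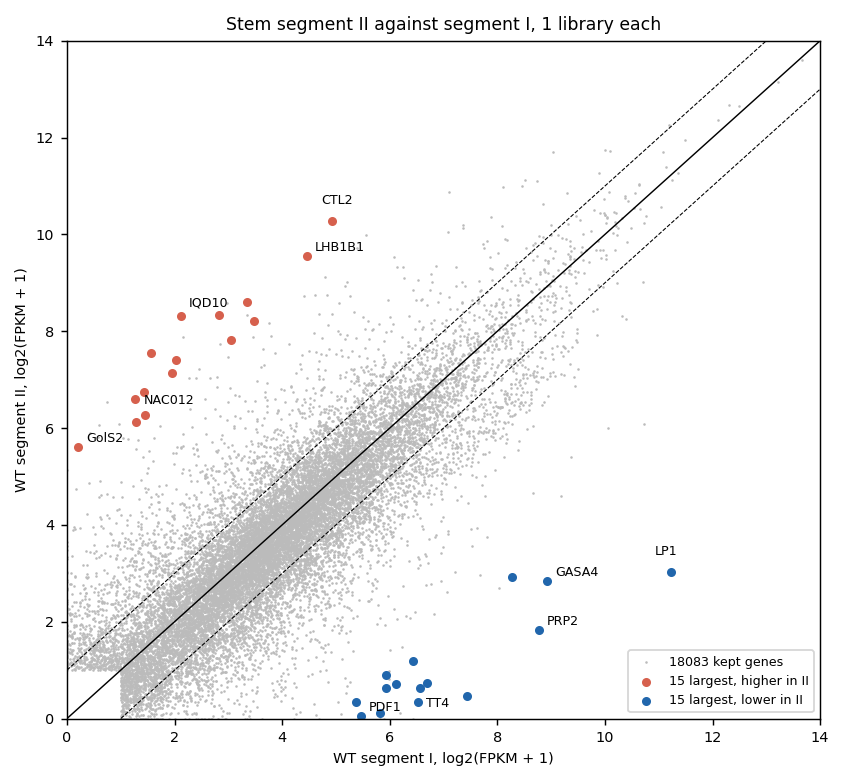
Level of each of the 18083 kept genes in segment I (x axis) and segment II (y axis), both as log2(FPKM + 1), with 1 library per axis. Dashed lines mark 2-fold, and the coloured points are the 15 largest differences each way among genes with a symbol and at least 10 FPKM in the higher library; LTP1 (labelled LP1) lies lowest for its level in segment I, at 2394.7 and 7.15 FPKM.

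Some genes went from a clear level to almost none. A total of 31 genes had at least 10 FPKM in segment I and under 0.5 in segment II, and 16 had the reverse. Among the 31 were the cutin hydroxylase gene CYP86A4, the glycerol-3-phosphate acyltransferase gene GPAT3 (13.37 and 0.36), the trichome repressor gene TCL1 (19.26 and 0.1), the subtilase gene SBT1.3 (18.22 and 0.06) and the expansin gene EXPA11 (10.49 and 0.44). Among the 16 were GolS2, NST2 (listed as NAC066, 0.09 and 14.43), a NAC switch of wall thickening, and NAS1 (0.08 and 13.87), which makes the metal chelator nicotianamine. These examples were picked after their values were seen.

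Counts were also taken by theme, to be read beside 10.3% higher and 16.8% lower over all kept genes. Among 497 kept transcription factors of the 16 factor lists, 95 (19.1%) were higher and 65 (13.1%) lower. These 16 did not include a list of helix-loop-helix factors. For 297 carriers and pumps of the 9 transport lists the counts were 64 (21.5%) higher and 22 (7.41%) lower. In the 9 lipid lists 7 of 132 genes (5.3%) were higher and 56 (42.4%) lower. The 12 hormone lists had 39 of 266 genes higher (14.7%) and 44 lower (16.5%). The 8 peptide lists had 14 of 96 genes higher (14.6%) and 22 lower (22.9%). In the 4 cell surface lists 11 of 59 genes were higher (18.6%) and 17 lower (28.8%).

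**Figure D2:**
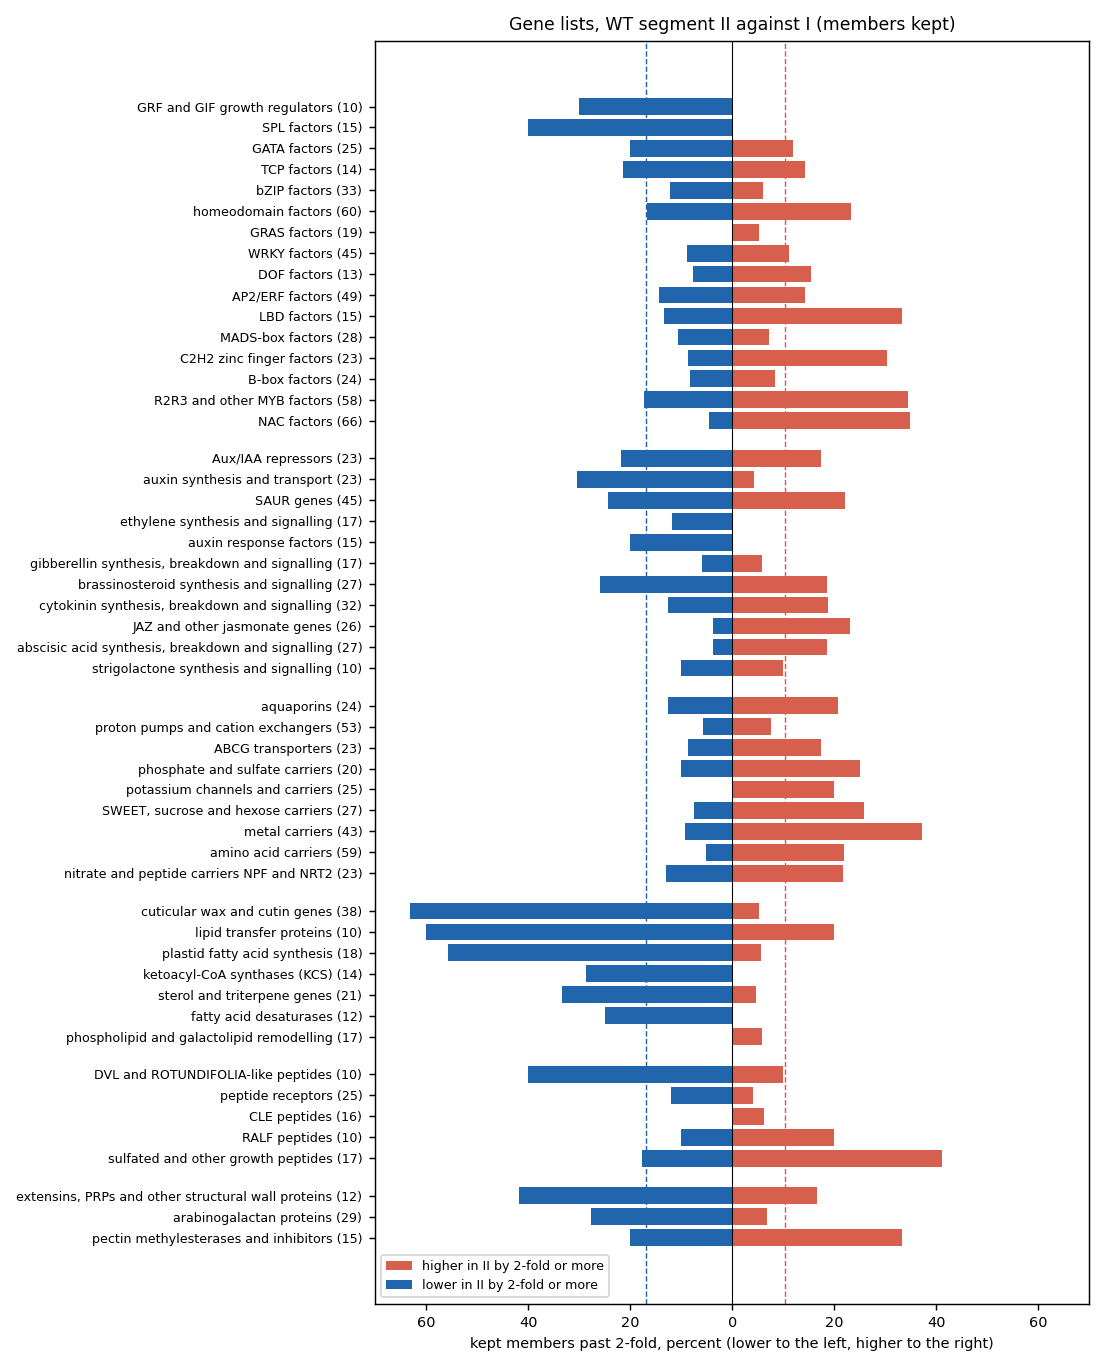
Share of kept members, in percent, that were lower (blue, to the left) or higher (red, to the right) in segment II by at least 2-fold, for each gene list with at least 10 kept members (number in parentheses), grouped as transcription factors, hormones, transport, lipids, peptides and cell surface. Dashed lines are the shares over all kept genes, 16.8% lower and 10.3% higher; cuticular wax and cutin genes reach 63.2% lower and metal carriers 37.2% higher.

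NAC factors, which include the switches of fibre and vessel walls, had 23 of 66 kept members higher (34.8%) and 3 lower, with a median of 0.58. The summed level of the 7 fibre markers, 480.32 FPKM in segment I and 3774.54 in segment II, and of the 9 vessel and xylem markers, 325.61 and 2927.84, moved with the NAC and MYB lists and shares genes with them, and the part of these cells in the counts was not tested. Apart from the fibre switches, NAC010 (also called SND3, AT1G28470) was at 1.81 FPKM in segment I and 32.55 in segment II. NAC1 (AT1G56010), a factor of auxin signalling in roots, was at 1.6 and 14.08. The most abundant member, NAC062 (AT3G49530), a membrane-bound stress factor, was at 192.96 and 146.88. Other higher members, named after their values were seen, were the senescence factor NAP (0.62 and 5.37), the drought factor RD26 (2.85 and 10.64) and XND1 (3.47 and 14.74), a negative regulator of xylem wall formation. The 3 lower ones were the vessel regulators VND1 (2.01 and 0.14) and VND2 (listed as NAC076, 4.07 and 0.88) and the stress factor NAC103 (2.33 and 0.36).

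MYB factors moved in both directions, with 20 of 58 higher (34.5%) and 10 lower (17.2%), and a median of 0.47. The higher ones with the largest differences were wall and lignin regulators (MYB103, MYB52 at 0.53 and 29.18, MYB63 at 1.87 and 45.07, and MYB85 at 1.6 and 29.62 FPKM). Regulators of aliphatic and indole glucosinolates were also higher, though named after their values were seen: MYB28 was at 25.21 and 60.82, MYB29 at 9.74 and 33.34, and MYB51 at 30.1 and 80.06. MYB69 was listed at 0 in segment I and at 9.13 in segment II. Of the lower members, MYB111, an activator of flavonol synthesis, was at 5.01 and 0.31. MYB106 (4.73 and 0.39) and MYB16 (5.57 and 1.02), paired activators of cuticle formation, were both lower, as was MYB96 (44.91 and 11.09), an activator of wax synthesis under drought. MYB94 (1.7 and 4.81), a close relative of MYB96 that also activates wax genes, went the other way. MYB73 was the most abundant MYB gene, at 272.76 and 387.74.

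Homeodomain factors went both ways, with 14 of 60 higher (23.3%) and 10 lower (16.7%) and a median of 0.06. The largest positive differences were those of KNOX and BELL proteins, which pair with each other, while the KNOX genes STM and KNAT1 lay within 2-fold. KNAT7 (AT1G62990), a KNOX factor of secondary walls, was at 7.73 and 101.81 FPKM, and its BELL partner BLH6 was at 13.38 and 59.81. BLH2 (3.35 and 47.21) and BLH4 (2.4 and 23.99), a close pair also known as SAWTOOTH factors, were both higher. Lower genes included 3 of the zinc finger homeodomain class, HB28 (14.44 and 0.65), HB33 (5.18 and 0.4) and HB31, at 4.95 in segment I and listed at 0 in segment II. HAT1 (AT4G17460), a homeodomain-leucine zipper factor of shade and brassinosteroid responses, was at 47.28 and 4.39, a difference of -3.16. HB6, the most abundant in segment I, was at 99.41 and 83.31.

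The SPL, the GRF and GIF and the auxin response factor lists had no higher member, against 10.3% of all kept genes. Short lists would hold few higher members at that share. Of 15 SPL factors, many of them targets of miR156 that govern phase change and leaf initiation, 6 were lower (40.0%) and the median was -0.70. SPL15 (AT3G57920) was at 37.59 FPKM in segment I and 3.7 in segment II, and SPL9 (AT2G42200) at 31.78 and 5.02. SPL13A (7.21 and 1.9) and SPL13B (55.66 and 19.03) are near-identical copies, whose separate values are uncertain. SPL1, of the longer SPL proteins that miR156 does not target, was the most abundant and lay within 2-fold at 106.64 and 65.47. Of 10 GRF and GIF genes, whose products form a complex that sustains cell division, 3 were lower (median -0.83), or 6 with a pseudocount of 0.1. Under median-of-ratios scaling 2 were lower, and with scaling to an equal sum 5. With an FPKM floor of 5, 1 of 3 kept genes was lower (median -0.24). The coactivator gene AN3 (also called GIF1, AT5G28640) was at 9.05 and 0.19, whereas its relative GIF2 was at 31.35 and 26.35. GRF2 was at 2.38 and 0.16. AN3, GRF2 and GRF5 (1.12 and 0.06) passed the FPKM floor of 1 through segment I only. Among 15 auxin response factors none was higher and 3 were lower (20.0%, against 16.8% of all kept genes). Their median, -0.16, was that of all kept genes. The lower ones were ARF6 (72.37 and 20.55) and ARF8 (38.91 and 14.27), paired targets of miR167 that promote stem and flower growth, and ARF18 (6.43 and 2.12). ARF2, a repressor of growth, was at 51.12 and 59.72.

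**Figure D3:**
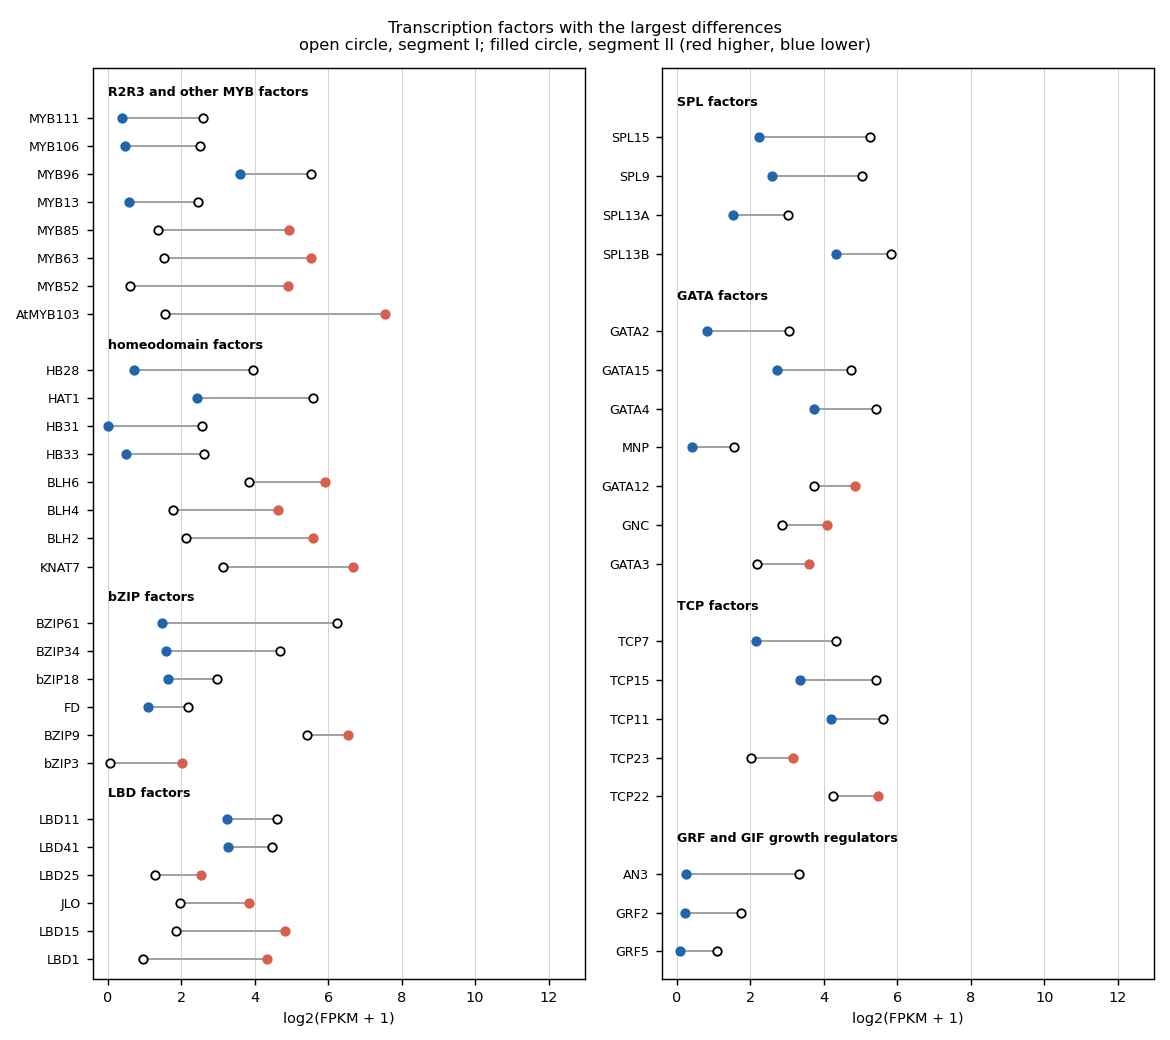
Levels, as log2(FPKM + 1), of the up to 4 members with the largest differences in each direction in 8 transcription factor lists, with an open circle for segment I and a filled circle for segment II (red higher, blue lower). The SPL and the GRF and GIF lists hold blue points only, whereas MYB, homeodomain and LBD factors hold both; AN3 stands at 9.05 and 0.19 FPKM.

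LBD factors had 5 of 15 higher and 2 lower (median 0.22), with LBD1 at 0.95 and 19.12 FPKM, LBD15 at 2.59 and 27.18, and LBD11, linked to cambium activity, at 23.29 and 8.57. C2H2 zinc finger factors had 7 of 23 higher and 2 lower (median 0.31), with ZFP2, a repressor of floral organ shedding, at 1.74 and 25.94 and ZAT11 at 11.57 and 1.49. In the bZIP list, 2 of 33 were higher and 4 lower (median -0.06), or 4 and 5 with a pseudocount of 0.1. BZIP61 (AT3G58120) and BZIP34 (AT2G42380), which are close relatives, were both far lower: the first at 74.28 and 1.79, a difference of -4.75, and the other at 24.76 and 2.01. GATA factors had 3 of 25 higher and 5 lower (median -0.19). GATA2 (7.26 and 0.78) and GATA4 (42.08 and 12.29), linked to light and brassinosteroid control of elongation, were lower, and GNC, a promoter of chlorophyll synthesis, was higher at 6.26 and 15.89.

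TCP factors had 2 of 14 higher and 3 lower (median -0.12), with TCP7 at 19.28 and 3.43 FPKM, TCP15, which promotes internode elongation, at 41.83 and 9.31, and TCP22 at 17.96 and 43.78. Of 49 AP2/ERF factors 7 were higher and 7 lower (median 0.17). The 3 cytokinin response factors CRF2 (5.37 and 1.02), CRF3 (5.68 and 1.06) and CRF4 (3.07 and 0.44) were among the lower ones, and the drought factor DREB2A (96.37 and 264.23) and EBP, a factor of ethylene and hypoxia responses (25.42 and 102.13), among the higher. WRKY factors, which act mostly in defence, had 5 of 45 higher (9 with a pseudocount of 0.1) and 4 lower (median 0.13), with WRKY54 at 35.38 and 5.15 and WRKY46 at 283.13 and 95.37. B-box factors had 2 of 24 in each direction (median 0.35), or 4 higher and 1 lower under median-of-ratios scaling, with BBX20 (listed as BZS1), a factor of brassinosteroid and light signalling, at 9.93 and 0.28. MADS-box factors had 2 of 28 higher and 3 lower (median 0.23), or 4 and 5 with a pseudocount of 0.1, with the floral identity gene CAL at 13.64 and 4.07 and the flowering integrator SOC1 (listed as AGL20) at 78.05 and 90.3. DOF factors had 2 of 13 higher and 1 lower (median 0.16), and GRAS factors 1 of 19 higher and none lower (median 0.09).

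Brassinosteroid genes went both ways, with 5 of 27 higher (18.5%), 7 lower (25.9%) and a median of -0.12. BR6OX1 (AT5G38970), a late enzyme of synthesis, was at 10.64 FPKM in segment I and 0.49 in segment II, and DWF1, an early enzyme, was at 205.28 and 59.33. CYP90D1, another enzyme of the pathway, went the other way at 10.77 and 50.88. PRE1 (AT5G39860, 9.02 and 0.43) and PRE5 (AT3G28857, 5.33 and 0.54), small helix-loop-helix proteins that promote elongation, were lower. IBH1 (AT2G43060), the helix-loop-helix inhibitor that PRE proteins bind and counteract, was higher at 6.64 and 37.59. HBI1, a growth-promoting factor that IBH1 binds, was also higher, at 5.58 and 26.55. BKI1, an inhibitor of the receptor BRI1, was at 5.36 and 15.24, and the vascular receptor gene BRL3 at 1.12 and 6.63. The kinase gene BIN2 was the most abundant in segment II, at 111.12 and 132.9.

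Of the genes for auxin synthesis and transport, 7 of 23 were lower (30.4%) and 1 was higher, with a median of -0.42. ABCB19 (AT3G28860), an exporter that carries auxin down the stem, was at 63.22 FPKM in segment I and 7.82 in segment II, a difference of -2.86. Its relative ABCB1 lay at 95.66 and 94.56. The exporter gene PIN7 was at 30.49 and 7.34, the importer gene LAX2 at 34.45 and 6.44, and the kinase gene PID, which directs PIN proteins, at 25.28 and 5.6. In segment III, LAX2 was at 36.4, so its low level was seen in segment II alone among the 3 WT segments, each with 1 library. TAA1, a first enzyme of auxin synthesis, was at 2.38 in segment I and listed at 0 in segment II. Of the GH3 conjugation enzymes 1 of 5 was lower and none higher, and the 1 came within 2-fold under median-of-ratios scaling.

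Auxin response genes went both ways. Of 23 Aux/IAA repressor genes 4 were higher and 5 lower (median -0.45). IAA19 (37.35 and 6.12 FPKM) and IAA1 (23.03 and 5.32), early auxin-induced genes, were lower, and IAA28 (24.46 and 65.25) and IAA29 (0.18 and 4.27) higher. IAA7, the most abundant, was at 367.53 and 337.96. SAUR genes, a large family of small auxin-responsive genes that includes promoters of cell expansion, had 10 of 45 higher (22.2%) and 11 lower (24.4%), with a median of -0.42. With a pseudocount of 0.1 the SAUR counts were 12 higher and 19 lower, and with an FPKM floor of 5 they were 9 and 5. SAUR14 (6.27 and 0.46), SAUR1 (10.97 and 1.65), SAUR19 (3.95 and 0.31) and SAUR13 (12.3 and 2.88) had the largest negative differences, and SAUR41 (3.41 and 32.84), SAUR74 (7.59 and 45.09), SAUR76 (2.79 and 18.41) and SAUR40 (0.18 and 5.02) the largest positive ones. SAUR48 was the most abundant member in segment I, at 109.93 and 34.58, and SAUR30 in segment II, at 58.18 and 104.33. Some SAUR genes are close tandem copies, so the value of a single copy is uncertain.

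Gibberellin genes had 1 of 17 higher and 1 lower (median -0.14), or 2 and 3 with a pseudocount of 0.1. The lower one was GA3OX1 (AT1G15550), which makes the active hormone, at 3.49 and 0.3 FPKM, and the higher was the receptor gene GID1C, at 3.99 and 11.93. Cytokinin genes had 6 of 32 higher (18.8%) and 4 lower (12.5%), with a median of 0.08. Among enzymes of synthesis, LOG8 (AT5G11950), which frees the active hormone, was at 9.24 and 80.65, and IPT3 (AT3G63110) and IPT5, which catalyse the first step, were at 0.55 and 9.45 and at 0.44 and 3.51, while IPT7 (9.86 and 16.5) and LOG1 (27.45 and 18.66) lay within 2-fold. Response regulators of type A, which are induced by cytokinin, differed among themselves. ARR5 (listed as RR5) was lower at 40.79 and 15.4, as were ARR7 at 23.91 and 9.26 and ARR3, at 4.6 in segment I and listed at 0 in segment II. ARR4 (27.63 and 48.0), ARR6 (2.03 and 2.35), ARR9 (9.67 and 7.42) and ARR15 (2.56 and 1.99) lay within 2-fold. IPT9, which acts on tRNA, was at 11.0 and 3.26.

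Abscisic acid genes had 5 of 27 higher (18.5%) and 1 lower, with a median of 0.60. Under median-of-ratios scaling the counts were 11 higher and 0 lower, and with a pseudocount of 0.1 they were 8 and 2. NCED4 (AT4G19170), a carotenoid cleavage enzyme also called CCD4, was at 5.46 FPKM in segment I and 51.16 in segment II. The receptor genes PYR1 (30.4 and 77.56) and PYL5 (5.83 and 13.35) were higher, and the receptor gene PYL4 (63.09 and 30.5), which came within 2-fold under median-of-ratios scaling, was lower. The transcription factor gene ABF3 was at 6.21 and 17.03, and CYP707A3, which breaks the hormone down and was the most abundant, was at 376.14 and 369.14. Jasmonate genes had 6 of 26 higher (23.1%) and 1 lower (median 0.29). The repressor gene JAZ9 (listed as TIFY7, AT1G70700) was at 81.07 and 318.64. Allene oxide cyclase genes, which are close copies, went apart, with AOC2 at 1.23 and 8.01 and AOC4 at 73.98 and 17.62. Of 17 ethylene genes 2 were lower and none higher (median -0.18), both encoding ACC synthases: ACS11 (32.68 and 15.16) and ACS2 (2.13 and 0.52). Neither passed 2-fold under median-of-ratios scaling. Strigolactone genes had 1 of 10 in each direction (median 0.61), or 2 higher under either other scaling, with the synthesis gene CCD8 at 1.54 and 0.14.

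The ERECTA, DVL and GASA lists had more lower than higher members, as did all kept genes (16.8% lower and 10.3% higher). In the list of EPF and EPFL peptides with their ERECTA receptors, 6 of 8 kept genes were lower and none higher (median -1.44), and with an FPKM floor of 5 there were 2 kept, both lower. ERECTA (ER, AT2G26330), the receptor whose loss shortens the stem, was at 30.9 FPKM in segment I and 5.95 in segment II, and its relatives ERL1 and ERL2 were at 2.37 and 0.05 and at 1.45 and 0.2. The ligand genes of this system in the stem were low in both libraries, with EPFL6 (listed as CHAL) at 2.86 and 0.18 and EPFL4 (listed as CLL2) at 1.47 and 0.08. ERL1, ERL2, EPFL6 and EPFL4 passed the FPKM floor of 1 through segment I only. STOMAGEN, the peptide that promotes stomata, was at 9.22 and 1.71. Of 10 DVL and ROTUNDIFOLIA-like peptides, which restrict cell proliferation when in excess, 4 were lower and 1 higher (median -0.20), or 2 higher under either other scaling, with RTFL1 at 13.13 and 0.51 and RTFL8 at 0.67 and 5.01. Among 6 GASA peptides 3 were lower and 1 higher (median -0.59): beside GASA4, GASA14 was at 91.52 and 9.12, and GASA1 was the higher one at 17.65 and 61.64. The third lower gene, GASA3, at 1.56 in segment I and listed at 0 in segment II, passed the floor through segment I only. RALFL34 (AT5G67070), of the RALF peptides that alter wall pH, was at 67.66 and 14.38, and RALF1 at 1.64 and 11.05, among 10 RALF genes with 2 higher and 1 lower (median 0.25), or 4 higher with a pseudocount of 0.1.

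Sulfated and other growth peptides had 7 of 17 higher (41.2%) and 3 lower, and a median of 0.76. The phytosulfokine precursors differed among themselves: PSK4 (AT3G49780) was at 7.73 and 75.38 FPKM, PSK2 (AT2G22860) at 6.35 and 56.65, and PSK5 at 11.17 and 30.21, whereas PSK3 was at 87.79 and 34.43. PSK3 was thus the most abundant of them in segment I and PSK4 in segment II. RGF6 (AT4G16515), a peptide gene of the RGF and GOLVEN family, was at 11.28 in segment I and listed at 0 in segment II. The danger peptide precursors PROPEP3 (1.41 and 9.36) and PROPEP5 (2.09 and 8.88) were higher and PROPEP4 (19.66 and 5.33) lower. CLE peptides had 1 of 16 higher and none lower (median 0.02), or 4 and 3 with a pseudocount of 0.1, and CLE41, the phloem signal to the cambium, lay at 40.92 and 45.38. Of 25 peptide receptors 1 was higher and 3 lower (median -0.14), or 2 higher and 1 lower under median-of-ratios scaling. The higher one was CEPR1 (listed as XIP1), a receptor of the vascular tissue, at 5.2 and 15.31, and BAM2 was at 7.24 and 1.96. Defensin-like genes had 1 of 4 higher and 2 lower, with LCR68 at 212.95 and 85.5.

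**Figure D4:**
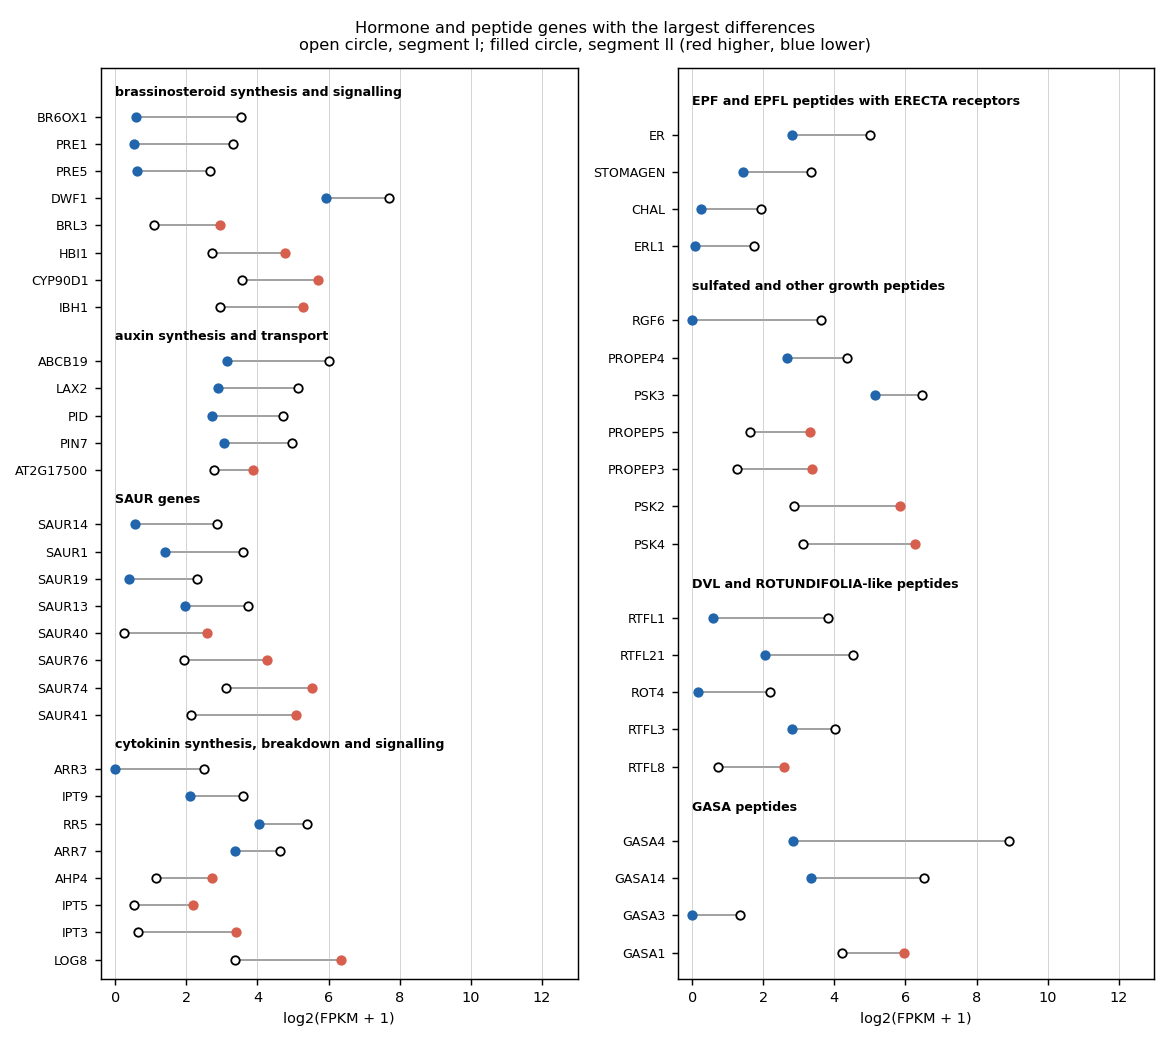
Levels, as log2(FPKM + 1), of the up to 4 members with the largest differences in each direction in 8 hormone and peptide lists, with an open circle for segment I and a filled circle for segment II (red higher, blue lower). The ERECTA list holds blue points only, and the brassinosteroid list holds PRE1 (9.02 and 0.43 FPKM) and IBH1 (6.64 and 37.59) on opposite sides.

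Genes of the surface lipids were mostly lower, with 24 of 38 cuticular wax and cutin genes (63.2%) lower, 2 higher and a median of -1.51. The 10 epidermis markers summed to 3097.3 FPKM in segment I and 531.64 in segment II. Most of this difference came from LTP1 alone (2394.7 and 7.15). Of the 10, 5 were lower and 5 lay within 2-fold, and WSD1, KCS10, KCS6 and ABCG12 are in both lists. The part of epidermal cell number in these counts was not tested. LTL1 (AT3G04290), a GDSL lipase-like gene, was at 93.34 FPKM in segment I and 0.54 in segment II. WSD1 (AT5G37300), the wax ester synthase of stems, was at 62.1 and 0.98, CYP86A4 (AT1G01600), a fatty acid hydroxylase of cutin, at 35.24 and 0.45, and HOTHEAD (HTH, AT1G72970), an oxidoreductase of cutin acids, at 35.84 and 0.59. CER4, which makes primary alcohols, was at 135.02 and 13.09, and CER2, needed for the longest chains, at 88.17 and 23.36. Of the genes for alkane wax, CER1 (577.89 and 355.28), its partner CER3 (195.19 and 248.92) and the elongase gene KCS6 (440.44 and 413.92) lay within 2-fold. The elongase genes KCR1 (96.13 and 34.89), PAS2 (141.56 and 46.82) and CER10 (137.44 and 64.51) were lower, and KCS10 (69.21 and 40.61) lay within 2-fold. CER10 came within 2-fold under median-of-ratios scaling. CER2, CER3, CER4, CER10, KCR1, PAS2 and KCS10 were named after their values were seen. LACS3 (16.03 and 33.96) was the higher gene beside MYB94. Of 14 ketoacyl-CoA synthases, the elongases to which KCS6 belongs, 4 were lower and none higher (median -0.85), or 2 higher with a pseudocount of 0.1, with KCS19 at 6.35 and 0.03 and KCS5 at 4.47 and 0.61. None of the 4 kept suberin genes passed 2-fold.

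Lipid transfer proteins, which carry lipids in the wall and at its surface, had 6 of 10 lower and 2 higher (median -1.32). Under median-of-ratios scaling 5 of 9 were lower. LTP2, at 1.01 FPKM in segment I and listed at 0 in segment II, was not kept under that scaling. LTP2 and LTP6 passed the FPKM floor of 1 through segment I only. LTP6 was at 55.52 and 0.09 FPKM, and the membrane-anchored LTPG6 and LTPG1, the latter an exporter of wax, were at 69.38 and 3.13 and at 180.93 and 14.06. LTP4 (AT5G59310) was higher and was the most abundant in segment II, at 1029.44 and 3425.82, so that the summed level of the 14 listed members was 6214.97 in segment I and 5262.92 in segment II. LTP4 has a close tandem copy, so its share of their reads is uncertain. All 5 kept GDSL lipase genes that carry a name, of 13 listed, were lower (median -2.42). MVP1 (28.66 and 13.03) came within 2-fold under median-of-ratios scaling. LTL1 and RXF26, the latter at 6.68 in segment I and listed at 0 in segment II, passed the FPKM floor through segment I only.

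Of 18 plastid genes for the synthesis of the fatty acids themselves, 10 were lower (55.6%) and 1 was higher, with a median of -1.09, or -0.94 under median-of-ratios scaling. BCCP2 (AT5G15530), a subunit of acetyl-CoA carboxylase, was at 36.47 FPKM in segment I and 2.01 in segment II. MOD1, the enoyl reductase, was at 102.44 and 24.34, the condensing enzyme gene KASI at 99.42 and 27.77, and the acyl carrier gene ACP4 at 283.28 and 93.69. FATB, the thioesterase that releases palmitate, lay at 103.75 and 115.81 and was the most abundant of the list in segment II. The single higher gene was WRI4 (10.76 and 24.87), a transcription factor that activates fatty acid synthesis for stem wax. Summed over the 18 genes, the level was 1707.53 in segment I and 826.45 in segment II. Of 12 desaturases 3 were lower and none higher (median -0.54), or 2 and 1 under median-of-ratios scaling. The lower ones were ADS4, FAD3 (239.57 and 61.19) and the plastid FAD8 (44.15 and 19.59). FAD2, the oleate desaturase of the endoplasmic reticulum, was at 462.24 and 899.0.

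Sterol and triterpene genes had 7 of 21 lower (33.3%) and 1 higher, with a median of -0.73. SMT3 (21.23 and 1.32 FPKM) and SMT2 (105.62 and 24.27), the methyltransferases that lead to sitosterol, were lower. The oxidosqualene cyclases, which form the ring systems, differed among themselves. BAS (AT1G78950), the beta-amyrin synthase, was at 114.86 and 12.85, with 0.11 in segment III, and LUP5 was at 22.72 and 2.49. LUP1, the lupeol synthase, lay at 142.17 and 158.69, and LAS1, the lanosterol synthase, was higher at 0.28 and 9.96. Phospholipid and galactolipid remodelling genes had 1 of 17 higher (2 with a pseudocount of 0.1), none lower and a median of -0.03. The higher gene, GPAT1, was at 0.23 and 7.96.

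**Figure D5:**
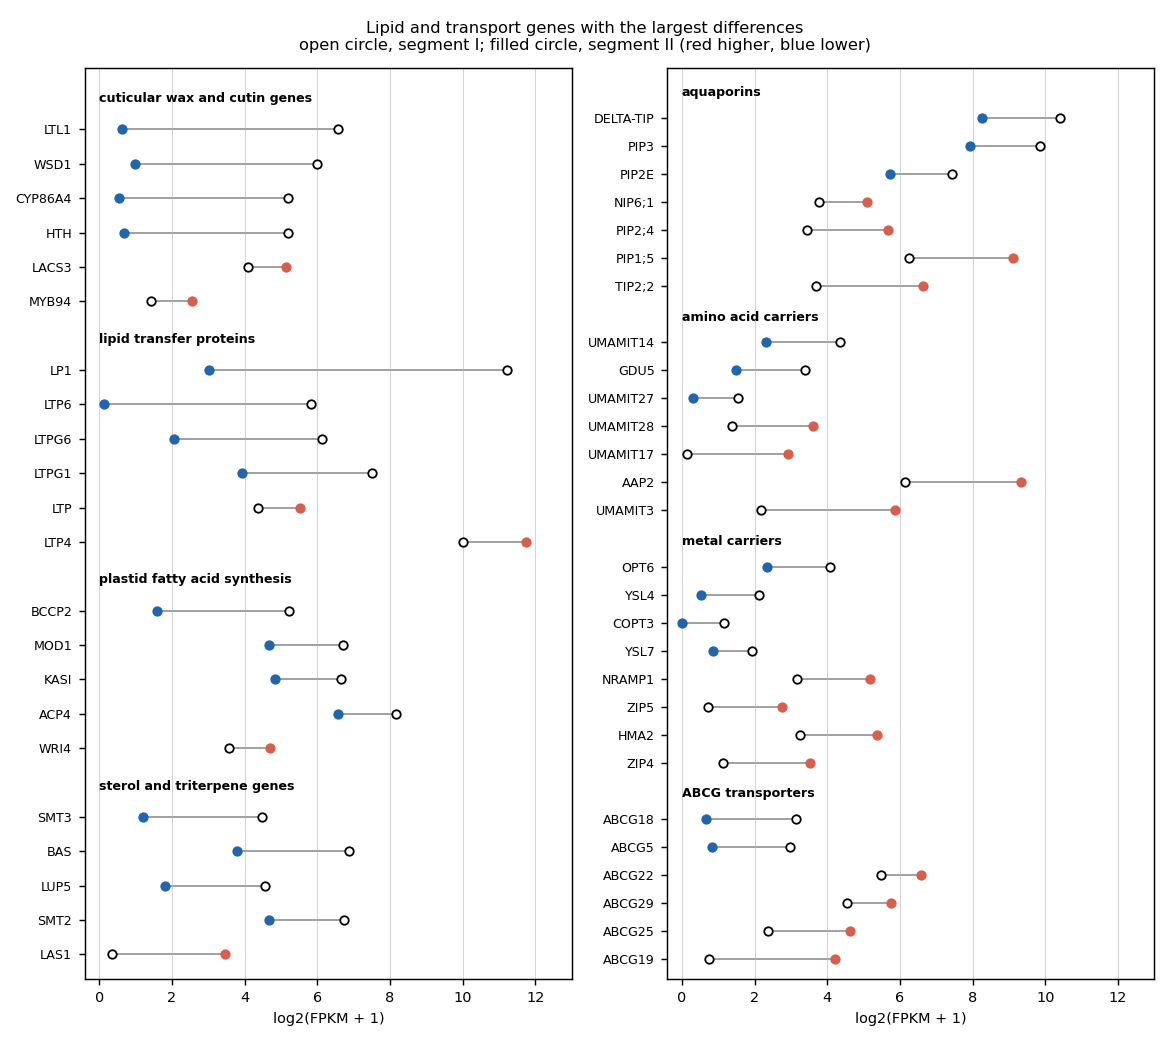
Levels, as log2(FPKM + 1), of the up to 4 members with the largest differences in each direction in 4 lipid lists (left) and 4 transport lists (right), with an open circle for segment I and a filled circle for segment II (red higher, blue lower). LTP1 (labelled LP1) spans 2394.7 to 7.15 FPKM and AAP2 spans 69.42 to 642.78.

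Among carriers, more genes were higher than lower. The 12 phloem markers summed to 393.9 FPKM in segment I and 1119.3 in segment II. The 4 higher ones were SWEET11 (16.43 and 213.67), SWEET12 (32.59 and 243.94) and SUC2 (71.44 and 162.99), which are also in the sugar carrier list, and PP2-A1 (40.22 and 231.08). The other 7 lay within 2-fold, among them SEOR1 (69.69 and 79.23) and APL (10.73 and 14.42), and the part of phloem cells in the carrier counts was not tested. Amino acid carriers had 13 of 59 higher (22.0%) and 3 lower, with a median of 0.49, or 18 and 6 with a pseudocount of 0.1. AAP2 (AT5G09220), which moves amino acids from xylem to phloem in the stem, was at 69.42 FPKM in segment I, 642.78 in segment II and 1010.93 in segment III, and was the most abundant of them in segment II. UMAMIT3 (AT3G45870) was at 3.48 and 57.45 and UMAMIT17 at 0.11 and 6.55, both of a family of amino acid exporters. UMAMIT14, a phloem exporter in roots and seeds, was at 19.26 and 3.93. WAT1, a vacuolar auxin carrier of fibres from the same family, was at 293.16 and 158.38, within 2-fold. Nitrate and peptide carriers had 5 of 23 higher and 3 lower (median 0.53), or 2 and 2 with an FPKM floor of 5. NRT1.9 (AT1G18880), a phloem nitrate carrier, was at 6.61 and 50.98 and the dipeptide carrier gene PTR1 at 18.0 and 65.12, and NRT1.12 (73.87 and 23.64) and NPF1.2 (131.12 and 54.43), paired carriers that redistribute nitrate to young leaves, were lower.

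Sugar carriers had 7 of 27 higher (25.9%) and 2 lower (median 0.48). Beside the sucrose exporters SWEET11 and SWEET12, the hexose carrier genes STP7 (3.5 and 20.28 FPKM) and STP14 (0.55 and 5.32) were higher, and the polyol carrier gene PMT5 was lower at 35.06 and 12.14. Summed over the 41 listed members, the level was 638.7 in segment I and 1321.32 in segment II. Phosphate and sulfate carriers had 5 of 20 higher and 2 lower (median 0.14), with PHO1, the phosphate exporter to the xylem, at 5.12 and 28.02, SULTR1;2 at 2.9 and 16.94, and PHO1;H3 at 8.01 and 1.25. Of 25 potassium channels and carriers 5 were higher and none lower (median 0.18), with KUP8 at 7.33 and 49.18 and the channel gene KAT1 at 1.68 and 8.88.

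Metal carriers had 16 of 43 higher (37.2%) and 4 lower, with a median of 0.48. The zinc importers ZIP4 (1.17 and 10.53 FPKM) and ZIP5 (0.63 and 5.78), the zinc exporter HMA2 (8.54 and 40.59) and the manganese carrier NRAMP1 (7.98 and 35.01) had the largest positive differences. RAN1, which supplies copper to ethylene receptors, was at 22.79 and 85.89. The peptide and chelate carriers OPT6 (16.0 and 4.04) and YSL4 (3.34 and 0.45) were lower. ABCG transporters had 4 of 23 higher and 2 lower (median 0.03), or 4 lower with a pseudocount of 0.1. ABCG19 was at 0.68 and 17.53, the abscisic acid exporter gene ABCG25 at 4.15 and 23.52, and ABCG29, an exporter of a lignin precursor, at 22.37 and 53.25, while ABCG18 was at 7.83 and 0.59.

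Aquaporins had 5 of 24 higher (20.8%) and 3 lower (12.5%), with a median of -0.09, but their summed level over 32 listed members was 7075.39 FPKM in segment I and 4963.71 in segment II. The lower ones were abundant. DELTA-TIP (also TIP2;1, AT3G16240), a channel of the vacuole membrane, was at 1349.06 and 302.62, and PIP2;7 (listed as PIP3, AT4G35100), a channel of the plasma membrane, at 920.22 and 240.15. The higher ones included other members of both classes, with TIP2;2 (AT4G17340) at 11.83 and 98.7 and PIP1;5 (AT4G23400) at 75.48 and 550.95. GAMMA-TIP was the most abundant in both libraries, at 1364.12 and 922.44. Pumps and cation exchangers had 4 of 53 higher and 3 lower (median -0.04). AHA2 (listed as HA2, AT4G30190), a plasma membrane proton pump that acidifies growing walls, was at 100.56 and 34.95, and the vacuolar calcium exchanger gene CAX3 was at 3.81 and 34.21.

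At the cell surface, members of the same family stood on opposite sides. Pectin methylesterases and their inhibitors, which set how stiff pectin is, had 5 of 15 higher and 3 lower (median -0.18). PMEPCRB (AT4G02330) was at 68.8 and 0.65 FPKM and PME5 (AT5G47500) at 63.31 and 1.66, against PMEPCRD (AT2G43050) at 4.0 and 64.06, PME17 (AT2G45220) at 12.23 and 121.45 and PMEPCRF, the most abundant in segment II, at 94.81 and 399.4. Extensins, proline-rich and glycine-rich wall proteins had 5 of 12 lower and 2 higher (median -0.82). PRP4 was at 583.48 and 23.11 and GRP23 at 184.19 and 31.71, and the glycine-rich GRP-3 was higher at 210.63 and 896.48. Arabinogalactan proteins had 8 of 29 lower and 2 higher (median -0.37), or 4 higher with a pseudocount of 0.1, with FLA8 at 373.26 and 62.52, AGP18 at 176.59 and 45.75 and AGP19 at 61.24 and 396.82. Of 3 kept pectin lyase and polygalacturonase genes 2 were higher, with QRT3 at 2.23 and 15.74, and 1 was lower, PMR6 at 76.38 and 24.66.

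Levels in the other RNA libraries are given here for the leading genes as a description. In WT segment III, LTP1 was at 2.14 FPKM, GASA4 at 3.91, PRP2 at 0.22, IQD10 at 341.25, GolS2 at 126.52 and LHB1B1 at 80.66. The library labelled atx1 II had LTP1 at 0.31, GASA4 at 4.1, PRP2 listed at 0, IQD10 at 57.26, GolS2 at 84.67 and LHB1B1 at 80.93. ATX1 itself was at 6.09 in WT segment II and at 21.76 in that mutant-labelled library, so its level was not lower there. A value for the whole gene does not show where in the gene the fragments lie, and the label was not tested. LHB1B1 was thus high in WT segment II alone among the 4 libraries.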

How the data were processed

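Deposited FPKM values, 1 table per library, came from the authors, per the file headers. Trimmomatic, HISAT, Bowtie2 and RSEM and TAIR10 are the tools and build named for the RNA libraries, per the submitters' processing notes, without versions. The handling of reads shared between close copies is not described in the labels, so values of close paralogs are uncertain. No counts were used and no test was run. Values were compared as deposited, as log2(FPKM + 1), in Python 3 with pandas and numpy, and the calling step was tested on simulated data. Depth is a rough estimate: in genes of 250 to 900 bp with values between 0 and 1 FPKM, the step was chosen that put the most values (72.2% in segment I, 72.0% in segment II) within 0.15 of whole fragments.

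Names came from the assembly TAIR10.1, which matched 23238 of 23615 identifiers. The 58 gene lists and 10 marker lists take genes by family name or symbol, with homonyms that were recognised removed by hand, so families are covered only as far as they carry such names, and a gene can be in several lists. The members and lists were chosen with earlier results of these data known. Named genes are the 15 largest differences each way among genes with a symbol and at least 10 FPKM in the higher library, then up to 4 members per list and direction past 2-fold and the most abundant member. Other named genes were chosen after their values were seen.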

Additional observations from a re-analysis of the deposited data

How the results depend on the processing

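No paired analysis was possible because each segment has 1 library. With other settings (a pseudocount of 0.1, an FPKM of at least 5 in either library, no filter on low values, median-of-ratios scaling, and scaling to a sum of 1000000), the count of higher genes ranged from 1518 to 2236 and that of lower genes from 2508 to 3757, each within 1.5 times the reported count. The median over all genes moved to -0.0145 under median-of-ratios scaling. Of 488 genes past 2-fold in the lists or among the named genes, none of those that could be evaluated changed direction. With an FPKM of at least 5, 386 of them were kept and 102 were not evaluated. With median-of-ratios scaling 28 came under 2-fold and 1 was not kept, and with scaling to an equal sum 1 came under 2-fold. A count of higher or lower members moved by more than 1.5 times in 26 of the 58 gene lists with the FPKM floor of 5, in 20 with the pseudocount of 0.1, in 9 with median-of-ratios scaling and in 8 with scaling to an equal sum. With the floor of 5 the lower counts came to 0 in NAC factors, 5 in MYB factors and 6 in homeodomain factors. Some medians moved as well: with a pseudocount of 0.1 lipid transfer proteins came to -2.57, the ERECTA list to -2.37, and GASA peptides and GRF and GIF genes each to -1.53, and without a filter lipid transfer proteins came to -0.49 and GDSL lipases to -0.68. At about 19000000 to 20200000 fragments, genes near 1 FPKM rest on few fragments, and no replicate shows how far plants differ.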
